A study of Homo sapiens with 4 samples.

Results

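The 10 genes described here are the core and primed pluripotency factors POU5F1, NANOG, SOX2, LIN28A, LIN28B, DPPA4, SALL4, PRDM14, L1TD1 and UTF1. They were found by symbol in a count table of 59050 genes, all 10 were present, and all 10 were among the 17564 genes that passed the filter on low counts. Expression was measured by RNA-seq in 4 libraries of HUES8, an established human embryonic stem cell line grown on Matrigel in mTeSR1, a medium that keeps the cells undifferentiated. By genotype label 2 libraries are WT and 2 are CPT2 KO, and the treatment field reads WT for all 4. CPT2 is the enzyme of the inner mitochondrial membrane that frees long-chain acyl groups from carnitine for fatty acid oxidation. The labels do not say how the knockout was made, how many clones it rests on, or whether replicates were separate cultures. The p-values therefore reflect the spread among these 4 libraries alone, which may be technical.

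Pluripotent cells hold their state through a small set of transcription factors that bind each other's promoters and enhancers. POU5F1 (OCT4) and SOX2 bind DNA as partners on a joined motif, and NANOG is among their best known targets. The RNA-binding proteins LIN28A and LIN28B block the maturation of the let-7 microRNAs, which in differentiated cells repress LIN28 itself and many growth genes.

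The promoter of NANOG holds a sequence match to the joined motif of POU5F1 and SOX2, and binding was not measured here. RefSeq promoters on GRCh38.p14, each 250 bases before to 50 bases after a gene start, were found for 6 of the 10 genes (7 promoters). They were searched on both strands for the SOX site CATTGT, the POU octamer ATGCAAAT, the SMAD box GTCTAGAC, and a composite made of the SOX site, any 1 base and the first 6 bases of the octamer. The composite contains the SOX site by construction. NANOG held the composite on the strand opposite to the gene, 119 to 107 bases before its start, and only 4 of 35116 promoters of this length (0.0114%) held it. LIN28B held a SOX site 140 to 135 bases before one of its starts, as did 10.8% of all promoters. The octamer (1.77% of all promoters) and the SMAD box (0.202%) were in none of these 7 windows. Both promoters are shown because they are the ones with a match, which is in capitals. That of NANOG is chr12:7789152-7789451 and that of LIN28B is chr6:104940715-104941014, both on the plus strand.
NANOG: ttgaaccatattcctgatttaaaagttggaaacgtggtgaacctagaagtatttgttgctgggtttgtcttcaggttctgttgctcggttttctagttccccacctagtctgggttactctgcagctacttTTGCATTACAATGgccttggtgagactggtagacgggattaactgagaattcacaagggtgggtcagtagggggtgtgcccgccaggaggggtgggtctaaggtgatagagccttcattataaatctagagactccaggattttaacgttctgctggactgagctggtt
LIN28B: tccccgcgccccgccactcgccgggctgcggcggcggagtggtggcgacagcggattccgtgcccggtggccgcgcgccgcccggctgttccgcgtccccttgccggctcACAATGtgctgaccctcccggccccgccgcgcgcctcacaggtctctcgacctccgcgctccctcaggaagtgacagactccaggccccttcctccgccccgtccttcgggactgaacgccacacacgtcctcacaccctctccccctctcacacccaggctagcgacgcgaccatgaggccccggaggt

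The let-7 microRNAs share the seed GAGGUAG, bases 2 to 8 of the mature strand, shown here in capitals for 1 of 8 family members. Seed matches, CTACCTC in the transcript, were counted on the sense strand of the longest annotated 3′ UTR of each gene (GENCODE 29). LIN28B had 4 matches and LIN28A had 1. SALL4 also had 1 match, and the other 7 factors had none. Of 3′ UTRs within 20% of the length of that of LIN28B, 23.4% held a match, and the share was 16.1% for LIN28A and 12% for SALL4. The site of LIN28A and the first site of LIN28B, at bases 44 to 50 of its 3′ UTR, are printed with the seed match in capitals.
let-7a-5p: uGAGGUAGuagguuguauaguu
LIN28A site: gcacagcctattgaaCTACCTCa
LIN28B site: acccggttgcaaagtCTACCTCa

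The libraries held 16887789 to 20460031 counts. Levels between libraries are given in CPM, that is counts per library size with TMM normalization, and a single count came to 0.0485 to 0.0603 CPM. CPT2 itself ran against the genotype labels, with 2.82 and 3.49 CPM under the WT label against 11.5 and 10.2 CPM under the CPT2 KO label (edgeR log2 fold change 1.78, SE 0.27, adjusted p = 0.0218). Without replicate 1 or replicate 2 labelled CPT2 KO that adjusted p was 0.250 and 0.0663. Directions are therefore stated between libraries as labelled. By chi-square on counts, replicate 1 labelled WT stood apart from the rest. Chi-square over its degrees of freedom was 39.6 to 53.3 in pairs that include it and 10.5 to 12.6 in pairs of the other 3. Correlations of log2 CPM overlapped, at 0.963 to 0.979 in pairs that include it and 0.977 to 0.981 in pairs of the other 3. Mitochondrial genes took 4.15% of its counts and 7.21% to 7.84% of those of the other 3. Values without this library are given for most factors.

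All 10 factors were expressed at high levels in every library; these are defining genes of the labelled cell type. Levels between genes are given in TPM, which divides counts by gene length and scales each library to a fixed sum. POU5F1 stood highest in all 4 libraries, with 2765 and 2294 TPM (WT label) and 2497 and 2620.3 TPM (CPT2 KO label). Its rank among all genes of the table was 33 and 31, then 28 and 30. Its mean level was 2544 ± 199 TPM (SD, n = 4). LIN28A followed at 1647 ± 271 TPM (ranks 46 to 55) and L1TD1, an RNA-binding protein derived from a retrotransposon, at 1420 ± 203 TPM (ranks 49 to 75). LIN28A was above L1TD1 in 2 of 4 libraries only, so this pair had no fixed order. DPPA4, a chromatin-associated SAP domain protein, came next at 714 ± 17.2 TPM (ranks 107 to 131).

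SOX2 and NANOG, though core factors, were far less abundant than POU5F1. SOX2 was at 352 ± 25.8 TPM (ranks 276 to 312) and NANOG at 206 ± 14.96 TPM (ranks 528 to 746; SD, n = 4 each). POU5F1 exceeded SOX2 by 6.94 to 7.86 times and NANOG by 10.7 to 14.98 times over the 4 libraries. The steps from POU5F1 to LIN28A, L1TD1 to DPPA4, DPPA4 to SOX2 and SOX2 to NANOG were clear of the spread, in that no library of the higher gene fell to the level of the lower gene. From NANOG downward the levels overlapped. LIN28B was at 170 ± 18.9 TPM, UTF1, a chromatin-bound repressor, at 143 ± 20.7 TPM, SALL4, a zinc finger factor, at 116 ± 21.4 TPM and PRDM14, a regulator of germ cell and stem cell identity, at 107 ± 3.12 TPM. Even the lowest of these ranks, 1544 for PRDM14 in replicate 1 labelled WT, was within the top 5.99% of the genes with a count in that library. The order depends on the length term, since by CPM the short gene UTF1 (1214 bases) ranked 4079 to 5277 and NANOG (5392 bases) 396 to 654.

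**Figure D1:**
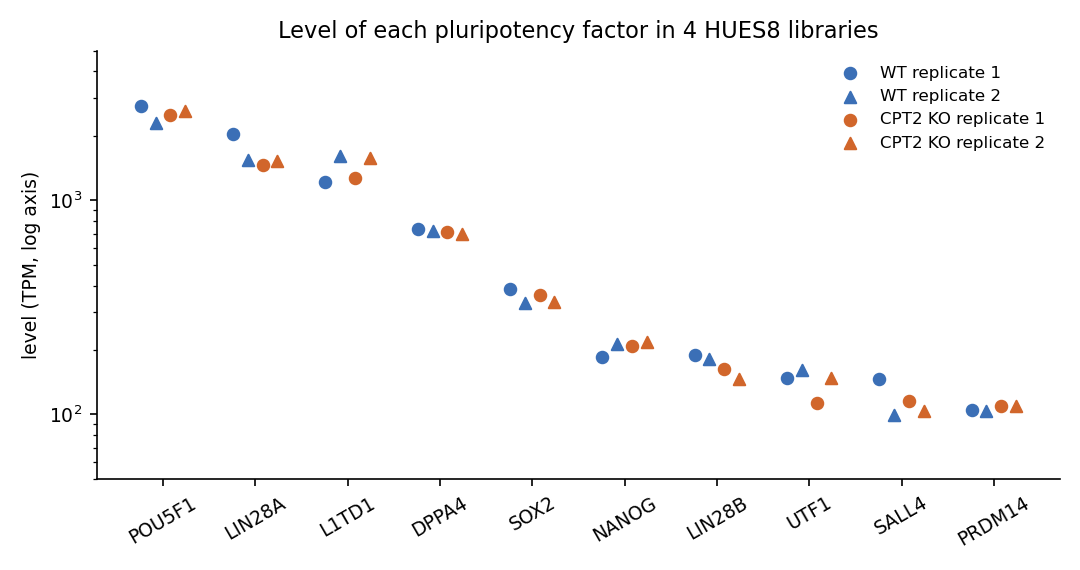
Level of each factor in TPM (log axis) in the 4 libraries, circles for replicate 1 and triangles for replicate 2. POU5F1 lies between 2294 and 2765 TPM and PRDM14 between 104 and 110 TPM, and the 2 colours, for the labelled genotypes, are interleaved for most genes.

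None of the 10 factors passed the test between the libraries labelled CPT2 KO and WT. The quasi-likelihood test of edgeR called 0 of 10 at an adjusted p of 0.05, against 0.416% of all 17564 tested genes (0.359% higher under the CPT2 KO label, 0.0569% lower). No factor reached an unadjusted p under 0.05 in edgeR, as 9.04% of all tested genes did. Likewise 0 of 10 were called by DESeq2 (1.11% of all tested genes), by limma-voom, or by edgeR with the replicate number as a block (2.12%). The log2 fold change was positive for 6 and negative for 4, with a median of 0.10 beside 0.0017 over all tested genes. The median size of the change, irrespective of sign, was 0.11 beside 0.21 over all tested genes. At this background rate a count of 0 among 10 genes does not set these genes apart.

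The intervals show how large a difference these data allow. Every factor's 95% interval held 0, and for all 10 it lay within a 2-fold change in either direction. For 9 of 10 it also lay within a 1.5-fold change, the exception being L1TD1, whose interval ran from 0.810 to 1.53 times. Of all tested genes, 11189 of 17564 had an interval within 2-fold and 6171 within 1.5-fold. The median SE was 0.14 for the factors and 0.22 over all tested genes. Genes of a similar level were not compared, so narrow intervals do not set the factors apart. The distance from the estimate to either end of the interval ranged from 0.28 for SOX2 to 0.46 for L1TD1 on the log2 scale.

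**Figure D2:**
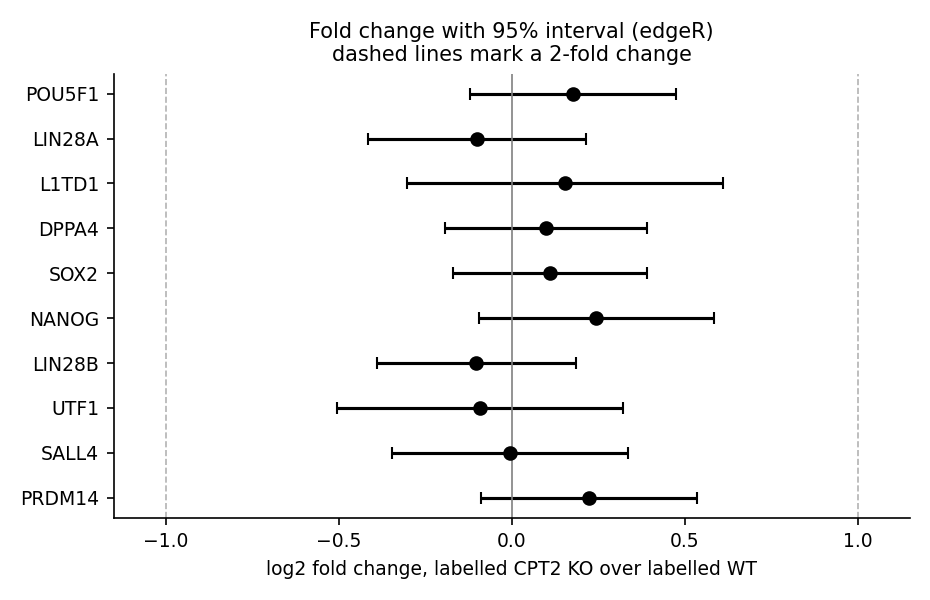
Log2 fold change of each factor, libraries labelled CPT2 KO over WT, with its 95% interval from edgeR (n = 2 each), in order of level. Every interval crosses 0 and none reaches the dashed lines at a 2-fold change.

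Among the core transcription factors POU5F1 (chromosome 6, 31164337 to 31180731, minus strand) had 2017 and 1884 CPM against 2109 and 2300.3 CPM, where here and below the values under the WT label come first. The groups did not overlap, and the log2 fold change was 0.18 (SE 0.13, edgeR adjusted p = 0.710). NANOG (chromosome 12, 7787794 to 7799141, plus strand) had 252 and 329 CPM against 330.1 and 357 CPM. One library, replicate 1 labelled WT, was low and the other 3 lay close together. Its log2 fold change of 0.24 (SE 0.15, edgeR adjusted p = 0.652) was the largest of the 10, and it was 0.064 without that library and 0.45 without replicate 2 labelled WT (adjusted p = 0.0980). SOX2 (chromosome 3, 181711924 to 181714436, plus strand) had 245 and 236 against 265 and 255 CPM, and its replicates differed by only 0.053 and 0.054 on the log2 scale. Both libraries labelled CPT2 KO were higher, by 0.11 on the log2 scale (SE 0.13, edgeR adjusted p = 0.813).

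The RNA-binding pair LIN28A and LIN28B both had slightly negative values. LIN28A (chromosome 1, 26410778 to 26429722, plus strand) had 2060.5 and 1747 CPM against 1701 and 1853 CPM, with overlapping groups. The log2 fold change was -0.099 (SE 0.14, edgeR adjusted p = 0.856), and it was 0.024 without replicate 1 labelled WT. LIN28B (chromosome 6, 104936616 to 105083332, plus strand) had 285 and 306 CPM against 284 and 266 CPM. Its groups were separated by less than 1 CPM (log2 fold change -0.10, SE 0.13, edgeR adjusted p = 0.833), and the value was -0.15 without replicate 1 labelled WT. L1TD1 (chromosome 1, 62194831 to 62212328, plus strand) had the widest spread, with 1185 and 1752 CPM against 1421 and 1844 CPM. Its replicates differed by 0.56 and 0.38 on the log2 scale, more than its log2 fold change of 0.15 (SE 0.20, edgeR adjusted p = 0.844).

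The chromatin and zinc finger factors had small differences too. DPPA4 (chromosome 3, 109326141 to 109337572, minus strand) had 926 and 1026 against 1038 and 1053 CPM, or 0.099 on the log2 scale (SE 0.13, edgeR adjusted p = 0.844). The difference was 0.026 without replicate 1 labelled WT, where DPPA4 was lowest, and 0.18 without replicate 2 of that label. SALL4 (chromosome 20, 51782331 to 51802520, minus strand) had 215 and 164 against 194 and 183 CPM, so that both libraries labelled CPT2 KO lay between those labelled WT. Its log2 fold change was -0.0048 (SE 0.15, edgeR adjusted p = 0.996). PRDM14 had 64.6 and 72.3 CPM against 78.7 and 81.3 CPM. The groups did not overlap (log2 fold change 0.22, SE 0.14, edgeR adjusted p = 0.654), and the value was 0.15 without replicate 1 labelled WT. UTF1 (chromosome 10, 133230274 to 133231558, plus strand) had 45.3 and 55.9 against 40.2 and 54.9 CPM, with 1 low and 1 high library in each group (log2 fold change -0.092, SE 0.19, edgeR adjusted p = 0.911). Its log2 fold change was -0.24 without replicate 1 labelled WT.

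For 6 of 10 factors the 2 groups did not overlap, POU5F1, NANOG, SOX2, DPPA4 and PRDM14 being higher and LIN28B lower under the CPT2 KO label. The same held for 40.9% of all tested genes, 21.1% higher and 19.8% lower. The count was 5 with library size only. On the TPM scale it was 4, with PRDM14 higher and LIN28A, LIN28B and DPPA4 lower, beside 11.4% of all tested genes higher and 33.3% lower. That scale has no TMM step, and on it the median of all tested genes lay 0.15 lower on the log2 scale in the libraries labelled CPT2 KO. On that scale the mean of SOX2 was 358 against 346 TPM and that of DPPA4 727 against 701 TPM, the opposite direction to their CPM. For 6 of 10 factors the larger gap between replicates exceeded the log2 fold change, beside 73.6% of all tested genes.

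The library with the lowest or highest CPM varied between factors. Replicate 1 labelled WT had the lowest CPM for 4 factors (NANOG, DPPA4, PRDM14 and L1TD1) and the highest for 2 (LIN28A and SALL4). Replicate 2 labelled CPT2 KO had the highest for 5 factors. These counts were not set beside those over all tested genes. The median gap between replicates was 0.20 between the WT replicates and 0.11 between the CPT2 KO replicates, beside 0.26 and 0.22 over all tested genes. The factors together took 0.733% to 0.810% of all counts in a library.

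**Figure D3:**
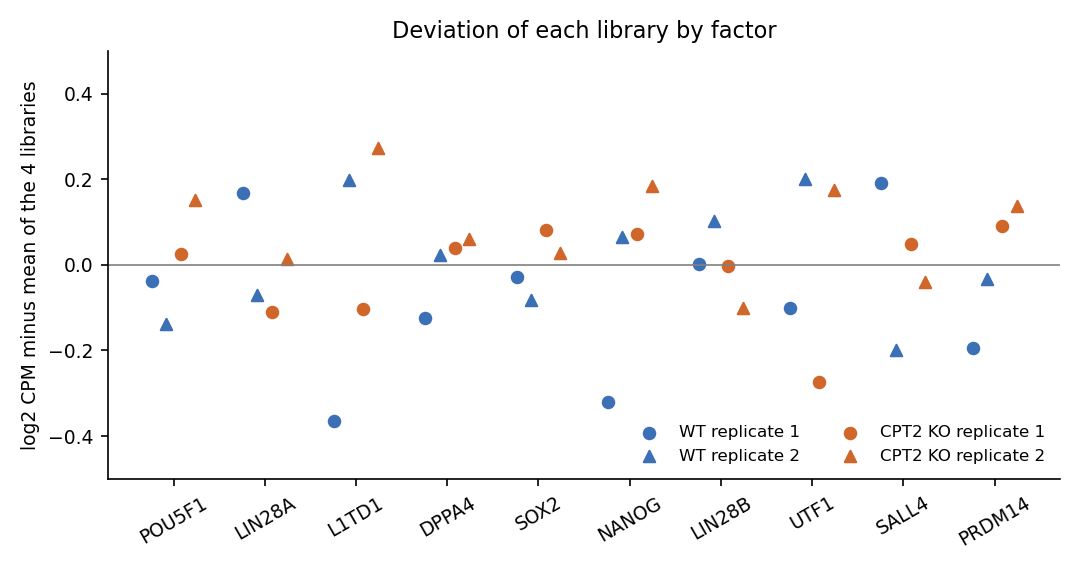
Deviation of each library from the mean of the 4 libraries (log2 CPM) for each factor, circles for replicate 1 and triangles for replicate 2. Replicate 1 labelled WT lies at -0.37 for L1TD1 and -0.32 for NANOG, while SALL4 and LIN28A are highest there.

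Leaving out 1 library at a time kept the sign of 6 factors, POU5F1, NANOG, SOX2, LIN28B, DPPA4 and PRDM14, and turned it at least once for LIN28A, L1TD1, SALL4 and UTF1. L1TD1 went from -0.10 without replicate 1 labelled WT to 0.46 without replicate 2 labelled WT. SALL4 went from 0.20 to -0.19 in the same 2 fits. UTF1 had -0.33 without replicate 2 and 0.12 without replicate 1 labelled CPT2 KO. In none of the 4 fits was any of the 10 called. Of all genes tested in each, 0.677% and 6.16% were called without replicate 1 or 2 labelled WT, and 0.131% and 0.448% without replicate 1 or 2 labelled CPT2 KO.

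**Figure D4:**
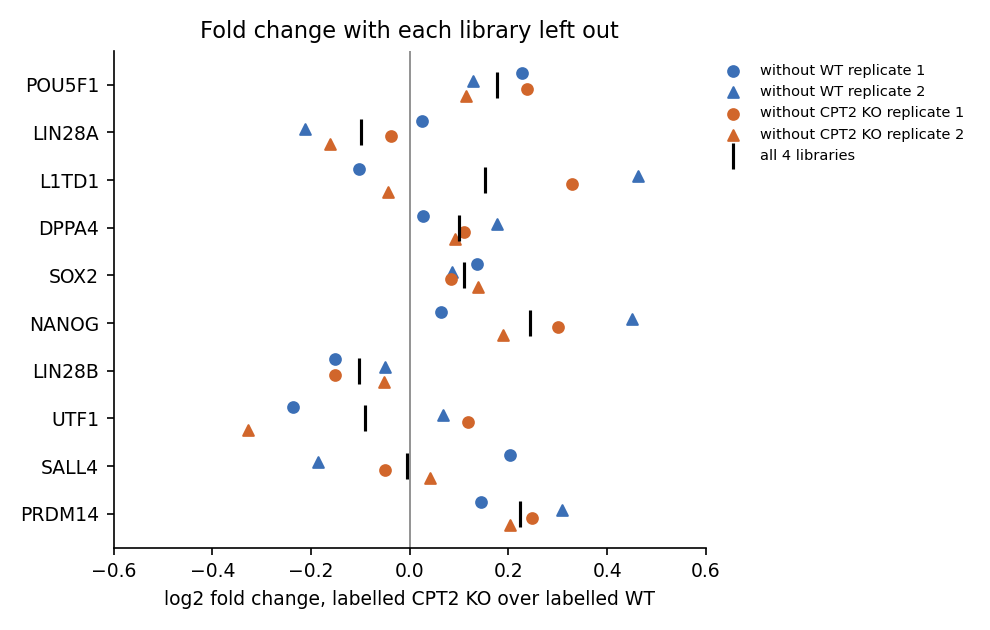
Log2 fold change of each factor with each library left out (coloured points, by the library removed) and with all 4 libraries (black bars). Points of L1TD1, SALL4, UTF1 and LIN28A fall on both sides of 0, while those of the other 6 factors stay on one side.

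Ratios between factors within a library do not depend on the scaling between libraries. LIN28A exceeded LIN28B by 10.8 and 8.55 times against 8.94 and 10.4 times. SOX2 exceeded NANOG by 2.09 and 1.54 times against 1.72 and 1.53 times. The log2 ratio of NANOG to POU5F1 was -3.90 and -3.42 against -3.58 and -3.59, and that of SOX2 to POU5F1 was -2.84 and -2.80 against -2.80 and -2.97. In all 4 ratios the groups overlapped, and the largest difference between group means was 0.15, for NANOG to SOX2.

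Reads of POU5F1 and NANOG can also be assigned to near-identical copies elsewhere in the genome. Rows of 7 POU5F1 copies, of which 4 had a count, summed to 2.82% to 3.03% of the POU5F1 count in a library. Rows of 11 NANOG copies summed to 22.1% to 23.7% of the NANOG count, nearly all from NANOGP8, a processed copy with 948 to 1387 counts, and NANOGP1, a tandem duplicate with 152 to 280. How the authors treated reads with several alignments is not given in the sources used here, so the level of NANOG is uncertain, by an amount these rows do not measure. Adding the copies to NANOG gave 311 and 406 CPM against 403 and 438.5 CPM, and the groups then overlapped. The LIN28A and SALL4 pseudogene rows (2 and 5) had no counts. Exons of POU5F1 overlap TCF19 on the opposite strand, which held 1.30% to 1.80% as many counts (log2 fold change 0.33, edgeR adjusted p = 0.646), and those of LIN28B overlap LIN28B-AS1, with 26 to 35 counts. L1TD1 overlaps a small RNA, RF00019, whose symbol is shared by other loci, so no value is given for it.

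Of 43 tested genes among other members of the pluripotency network, 5 were higher under the CPT2 KO label and 0 lower. The shares over all tested genes were 0.359% and 0.0569%. In either direction 13 of the 43 had an unadjusted p under 0.05 in edgeR, beside 9.04% of all tested genes. The 5 called were ZFP42, a pluripotency marker, GAL, the galanin neuropeptide, and NODAL, LEFTY1 and LEFTY2, the Nodal ligand and its antagonists. ZFP42 rose from 85.8 and 102 CPM to 178 and 191 CPM (log2 fold change 0.98, edgeR adjusted p = 0.0164) and GAL from 24.2 and 25.6 to 57.4 and 47.3 CPM (1.07, edgeR adjusted p = 0.0234). The log2 fold changes of NODAL, LEFTY1 and LEFTY2 were 3.49, 4.15 and 4.63, with edgeR adjusted p of 0.000416, 0.00114 and 0.000841. LEFTY1 (7 and 13 counts against 183 and 154) and LEFTY2 (8 and 8 against 220 and 161) passed the filter through the CPT2 KO label alone, and both calls were lost with the stricter filter. The other 38 did not pass in the main edgeR fit. Over the list the log2 fold change was positive for 20 and negative for 23 (median -0.038). DESeq2 also called GDF3 higher (log2 fold change 1.01 and adjusted p = 0.364 in edgeR). The replicate block called GDF3 and OTX2 higher (OTX2 1.25 and adjusted p = 0.626 in the main edgeR fit). LINC-ROR had 12 and 66 counts against 225 and 154, with no call in the main fit (2.37, edgeR adjusted p = 0.115). The most abundant of the 38, the surface marker CD24, the de novo DNA methyltransferase DNMT3B and the noncoding RNA ESRG, had log2 fold changes of -0.028, 0.25 and -0.092. The calls of ZFP42 and GAL were lost without replicate 1 labelled CPT2 KO (3 genes called), that of ZFP42 also without replicate 2 of that label, and 9 genes were called without replicate 2 labelled WT. LEFTY1 and LEFTY2 are close paralogues whose reads can be shared.

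A list of let-7 processing genes, let-7 host transcripts and let-7 targets gave 0 calls in edgeR among 31 tested genes. The share called over all tested genes was 0.416%. Of the 31, 4 had an unadjusted p under 0.05 in edgeR, beside 9.04% of all tested genes. Over this mixed list the log2 fold change was negative for 22 and positive for 9 (median -0.076). Over all tested genes it was negative for 8730 and positive for 8834. HMGA1, IGF2BP1 and TRIM71, the most abundant of the list and classical let-7 targets or stem cell RNA regulators, gave -0.067, -0.18 and -0.19 (adjusted p in edgeR of 0.916, 0.695 and 0.665). HMGA2, a chromatin protein and let-7 target, had 499 and 530.1 CPM against 405 and 382 CPM, with no overlap but no call (-0.39, edgeR adjusted p = 0.385). DESeq2 called 1 gene, the nuclear receptor NR6A1 (-0.62 and adjusted p = 0.114 in edgeR), at 302 and 264 CPM against 191 and 177 CPM. Of the let-7 host transcripts on this list 3 were in the table, and MIRLET7BHG had 0 to 4 counts and MIR99AHG 0 to 3 in a library. The third, MIR100HG, had 20 and 33 counts against 32 and 18 and passed the filter, with no call. Mature let-7 was not measured in these libraries, and let-7 host genes outside this list were not examined.

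Relatives of the factors within their own families had 1 call among 22 tested genes, beside 0.416% of all tested genes. It was lower, in SOX1, which shares the SOXB1 class with SOX2. SOX1 fell by 3.30 on the log2 scale, from 4.44 and 6.31 CPM to 0.742 and 0.301 CPM (edgeR adjusted p = 0.0164). SOX1 (82 and 130 counts against 15 and 5) passed the filter through the WT label alone. The call was lost without either library labelled CPT2 KO and with the stricter count filter. The third SOXB1 gene, SOX3, had 33.0 and 18.1 against 8.66 and 10.8 CPM, with no call in edgeR (log2 fold change -1.39, adjusted p = 0.107). DESeq2, the replicate block and the fit without replicate 2 labelled WT called SOX3 lower. SALL2, the relative of SALL4 with the highest CPM, had 567 and 425 CPM against 350 and 314 CPM (log2 fold change -0.58, edgeR adjusted p = 0.244). SALL3 had 61.1 and 58.1 CPM against 93.9 and 85.3 CPM, with no call (log2 fold change 0.59, edgeR adjusted p = 0.161). The replicate block called SALL2 lower and SALL3 higher. POU3F1 was called lower by that fit and by DESeq2, but not by the main fit (log2 fold change -1.03, edgeR adjusted p = 0.115). Whether the SOX and SALL relatives differ from SOX2 and SALL4 in their response was not tested. YBX1, a cold shock domain protein like LIN28, had a log2 fold change of 0.083.

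Of 28 tested markers of other cell types, 2 were called higher and 2 lower under the CPT2 KO label. The shares over all tested genes were 0.359% and 0.0569%. The summed TPM of 9 mesendoderm markers was 19.2 and 15.2 against 223 and 81.7, and 2 of 8 tested, the ligand genes WNT3 and FGF8, were called higher. FGF8 (4 and 7 counts against 214 and 142) passed the filter through the CPT2 KO label alone and was lost with the stricter filter, and WNT3 was lost without replicate 1 labelled CPT2 KO. DESeq2 also called TBXT, MIXL1, EOMES and GSC higher. Of these, TBXT (9 and 4 counts against 136 and 15) and GSC (5 and 0 against 63 and 23) passed the filter through the CPT2 KO label alone. The log2 fold change was positive for 7 of the 8 tested and negative for EVX1. EVX1 had 66 and 47 counts against 11 and 11 (-2.27, edgeR adjusted p = 0.117), and the replicate block called it lower. MESP1, which was not tested, had 8 and 4 counts against 2 and 1. The summed TPM of 10 definitive endoderm markers was 21.7 and 12.4 against 389 and 49.8, with 0 calls in edgeR and 3 of 6 tested at an unadjusted p under 0.05. DESeq2 called GATA4 and CER1, and edgeR with the replicate block called these and FOXA2. All 3 genes, with GATA4 at 5 and 4 counts against 113 and 30 and FOXA2 at 1 and 2 against 152 and 10, passed the filter through the CPT2 KO label alone. They are also the 3 at an unadjusted p under 0.05. CER1, a secreted Nodal antagonist, had 3 and 0 counts against 2509 and 185, and by itself it made up 349 and 30.2 TPM of the sums under the CPT2 KO label. SOX17, a defining endoderm factor, had 0 and 0 counts against 46 and 7. FOXA1 went the other way, with 8 and 19 counts against 3 and 2, and neither gene was tested. Neuroectoderm markers summed to 56.2 and 53.4 against 36.0 and 37.5 TPM, and 2 of 7 tested, SOX1 and SIX6, were lower. SIX6 (24 and 67 counts against 2 and 1) passed the filter through the WT label alone, as SOX1 did. Both calls were lost without either library labelled CPT2 KO and with the stricter filter, and that of SIX6 also in limma-voom. Amnion and trophoblast markers summed to 12.1 and 12.9 against 13.5 and 13.9 TPM, with 0 of 3 tested called in edgeR (1 at an unadjusted p under 0.05) and HAND1, CGA, CGB5 and ELF5 at 0. Fibroblast markers summed to 74.2 and 76.8 against 78.3 and 68.9 TPM, with overlapping groups. In edgeR 0 of 4 tested were called, with 1, TAGLN, at an unadjusted p under 0.05. TAGLN had 3.85 and 5.48 CPM against 11.2 and 10.5 CPM (log2 fold change 1.21, edgeR adjusted p = 0.118). DESeq2 and the replicate block called it higher.

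The 10 factors summed to 7929 and 7258 TPM against 7004 and 7487 TPM. The groups overlapped, as they did in the share of counts. In bulk RNA, fewer cells of a type and less RNA per cell cannot be told apart. The part of other cell types in the factors' values was not tested.

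**Figure D5:**
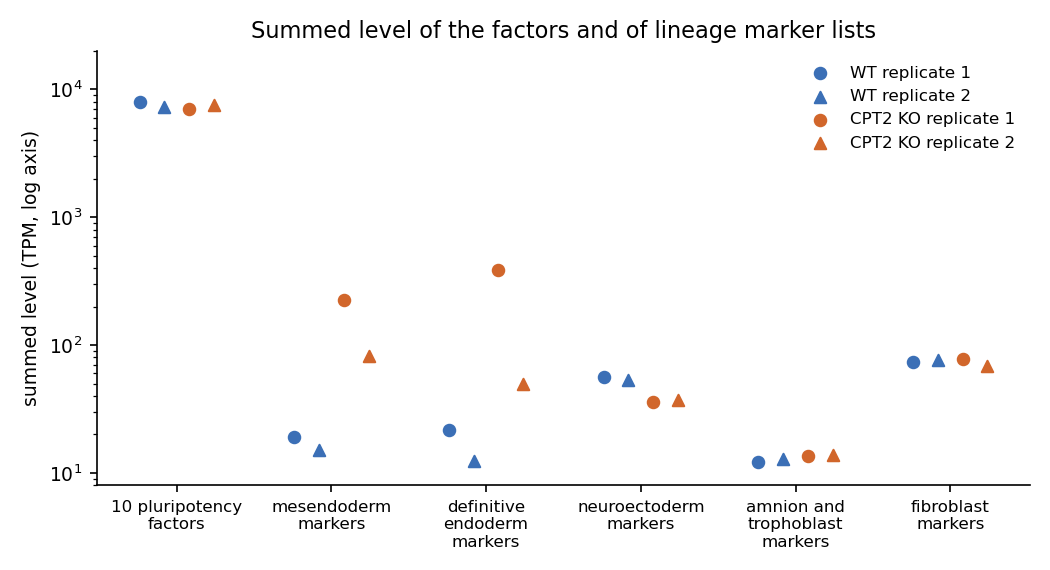
Summed TPM (log axis) of the 10 factors and of 5 lists of lineage markers in each library, circles for replicate 1 and triangles for replicate 2. The factors lie between 7004 and 7929 TPM in all 4 libraries, while definitive endoderm markers range from 12.4 to 389 TPM.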

How the data were processed

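RNA-seq was deposited for 4 HUES8 libraries, 2 per labelled genotype. The deposited table holds raw counts per gene symbol with gene lengths in bases as another column, per the file headers. Reads were processed with HISAT2 2.1.0 and featureCounts 1.6.4 on GRCh38 (hg38), per the submitters' processing notes. Strand and multi-mapping settings and the annotation release are not given in those sources.

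Counts were filtered with filterByExpr by group, scaled by TMM and tested over all genes with the robust quasi-likelihood F-test of edgeR 4.0.16 (R 4.3.3, legacy set to false), on labelled genotype alone, with Benjamini-Hochberg adjustment at 0.05. SE is the log2 fold change divided by the square root of F, and 95% intervals use the moderated degrees of freedom. TPM used the deposited lengths. Alternatives used DESeq2 1.42.0, limma-voom (limma 3.58.1), other scalings and filters, the replicate number as a block, and each library left out.

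The factors and lists were chosen with earlier results of these data known. Named genes are the factors, CPT2, genes with exons overlapping a factor, and in each other list the called genes and the 3 with the highest CPM. GDF3, OTX2, LINC-ROR, HMGA2, NR6A1, SOX3, SALL3 and POU3F1 were chosen after their values were seen. So were SOX17, FOXA1, TBXT, GSC, EVX1, MESP1, GATA4, the let-7 hosts and the NANOG copies. Not every gene this rule selects in the lineage lists is named, and 1 selected among the relatives is not reported here. Positions are from GENCODE 29, and proteins were not used here.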

Additional observations from a re-analysis of the deposited data

How the results depend on the processing

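In all 14 alternatives 0 of the 10 factors were called, and their median log2 fold change ranged from 0.045 (without replicate 1 labelled WT) to 0.11. With each library left out in turn, the number of called genes ranged from 3 to 9 in the pluripotency network, 0 to 3 in the let-7 list, 0 to 6 among relatives and 4 to 11 among lineage markers, and the CPT2 log2 fold change from 1.64 to 1.95. The stricter filter, 1 CPM in all 4 libraries, tests fewer genes and gave 3 network genes, 0 relatives and 1 lineage marker. DESeq2 gave 1 let-7 list gene, 3 relatives and 11 lineage markers. SALL4 had log2 fold changes of 0.0093 with limma-voom and 0.0068 with the replicate block. With each library left out, those of SALL4 ranged from -0.19 to 0.20 (0.040 without replicate 2 labelled CPT2 KO), of LIN28A from -0.21 to 0.024, of L1TD1 from -0.10 to 0.46 (-0.045 without replicate 2 labelled CPT2 KO) and of UTF1 from -0.33 to 0.12 (0.066 without replicate 2 labelled WT). The cause was not tested. The median rank of the factors was 444 by TPM and 516 by CPM, and 416 to 457 with each library left out. Group differences in the log2 ratio ranged over the left-out libraries from -0.18 to 0.16 (LIN28B to LIN28A), -0.16 to 0.32 (NANOG to POU5F1), -0.16 to 0.024 (SOX2 to POU5F1) and -0.073 to 0.36 (NANOG to SOX2). The labels do not say that libraries with the same replicate number belong together, and the deviations of same-numbered libraries correlated at 0.17 over tested genes. With the replicate number as a block edgeR called 233 higher and 140 lower genes, beside 63 and 10 without it, among them 1 let-7 list gene, 5 relatives and 12 lineage markers. Over all genes, DESeq2 called 149 higher and 46 lower, the stricter filter 31 and 8, and no filter 101 and 23. Leaving out WT replicate 1 gave 96 and 30, WT replicate 2 gave 490 and 643, CPT2 KO replicate 1 gave 23 and 1, and CPT2 KO replicate 2 gave 82 and 1. Where a group is left with 1 library, that library is assumed to vary like the others. The legacy estimate and the other scalings of the overlap count were added after seeing the data.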
